A study of Mus musculus with 9 samples.

Results

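Reads of 3 nuclear tRNAs in mouse serum, Phe-GAA, Trp-CCA and Cys-GCA (the amino acid carried, then the anticodon), were chosen by the names of the references they align to. A read was a member only where every one of its alignments lay on references of these tRNAs. There were 1317 distinct sequences with 11236 reads, of 41240 sequences and 555585 tRNA reads in all. Phe-GAA had 169 sequences and 472 reads, Trp-CCA had 552 and 3008, and Cys-GCA had 595 and 7752. The remaining sequence, with 4 reads, met both Phe-GAA and Cys-GCA and was kept in neither. The rule used each read's alignments and its number of copies, and no difference between groups.

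The study sequenced small fragments of tRNA from the blood serum of mice in a model of atherosclerosis, the build-up of fatty plaque in artery walls. The 3 groups of 3 libraries were mice on a normal diet, whose titles carry the strain name C57, mice on a high fat diet, and mice on a high fat diet given SalB (salvianolic acid B, a phenolic compound of the danshen root). Every library carries the label week 20, and no strain or genotype is given for the high fat diet groups, so diet and strain cannot be told apart. Nothing in the labels says that the libraries of a group came from separate animals, and p-values then measure only the spread between these libraries, which may be technical. In serum, fewer releasing cells and less RNA released per cell cannot be told apart.

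Transfer RNAs carry amino acids to the ribosome and read the messenger with their anticodon loop. Nucleases such as angiogenin cut them in that loop into a 5′ and a 3′ piece, and other cuts in the D or T loop give shorter fragments. The mature 3′ end is the triplet CCA, added after transcription, to which the amino acid is joined. Fragments from either end circulate in serum. Chemical modifications on tRNA bases can hinder the copying of RNA to cDNA.

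The mature sequences below were put together from the aligned reads, with no conflicting base, and are shown because most differences between groups lay at the first base of the fragments. Capitals mark bases 38 to the end in Phe-GAA-1-1 and Trp-CCA-1-1, and bases 59 to the end in Cys-GCA-2-1, counted from 1 at the 5′ end. The anticodon is at bases 34 to 36 in Phe-GAA-1-1 and at bases 33 to 35 in the other two.
Phe-GAA-1-1: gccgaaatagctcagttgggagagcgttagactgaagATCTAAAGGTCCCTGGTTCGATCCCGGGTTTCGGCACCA
Trp-CCA-1-1: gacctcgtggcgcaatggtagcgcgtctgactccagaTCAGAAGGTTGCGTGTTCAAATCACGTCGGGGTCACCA
Cys-GCA-2-1: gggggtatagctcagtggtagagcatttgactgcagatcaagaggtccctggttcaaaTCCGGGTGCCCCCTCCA

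The leading fragments of each tRNA are shown next, in lower case, with the bases of the CCA tail in capitals. They start either at base 38, which is the last base of the anticodon loop in Phe-GAA and the first base of the stem after it in Trp-CCA, or at bases 55 to 59, in the T arm, except the last, from the D arm.
Phe-GAA, 38 to 76: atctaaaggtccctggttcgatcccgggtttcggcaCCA
Phe-GAA, 55 to 76: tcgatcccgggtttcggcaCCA
Trp-CCA, 38 to 69: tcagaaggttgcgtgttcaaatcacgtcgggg
Trp-CCA, 38 to 70: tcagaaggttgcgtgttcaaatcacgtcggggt
Trp-CCA, 58 to 75: atcacgtcggggtcaCCA
Trp-CCA, 59 to 75: tcacgtcggggtcaCCA
Cys-GCA, 58 to 75: atccgggtgccccctCCA
Cys-GCA, 59 to 75: tccgggtgccccctCCA
Cys-GCA, 14 to 27: agtggtagagcatt

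The libraries held 28191 to 156333 tRNA reads. SalB replicate 2 stood apart: 41.7% of its reads were precursor reads of Leu-CAG-3-1, against 2.53% in SalB replicate 1 and at most 0.103% in the 7 others. Every SalB library also differed in make-up from those without SalB. Mature nuclear tRNAs gave 39429 of 62258, 65870 of 156333 and 28309 of 40134 tRNA reads in SalB replicates 1, 2 and 3. In each library without SalB they gave a larger part, the lowest being 25224 of 28191 in high fat diet replicate 2. Levels are therefore given as normalised CPM, counts scaled to a common library size with trimmed-mean factors, which set libraries level on the bulk of their fragments. With SalB against high fat diet the median log2 difference over all 733 fragments tested was -0.15 on this scale and -0.999 when libraries were scaled by their total reads. Changes below are limma-voom log2 differences with Benjamini-Hochberg adjustment over the whole table, called at an adjusted p under 0.05.

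Phe-GAA was the rarest of the 3 tRNAs and rose with SalB. Its level was 486, 623 and 314 CPM on normal diet, 509, 346 and 345 in the high fat diet group, and 1936, 2384 and 1719 with SalB, so all 3 SalB libraries lay above the other 6. These levels rest on 12 to 34 reads a library without SalB and 69 to 152 with it. The rise over high fat diet was 2.28 on the log2 scale (SE 0.31, 4.86-fold, limma-voom adjusted p = 0.000945), and that over normal diet was 2.20 (SE 0.29, adjusted p = 0.000635). Of all 103 families tested (reads grouped by amino acid and anticodon), 26.2% were called higher and 4.85% lower with SalB than on high fat diet (31.1% in either direction), and 28.2% higher and 5.83% lower than on normal diet. The rise over high fat diet was 2.26 without SalB replicate 2 (limma-voom adjusted p = 0.000152), 1.52 with libraries scaled by total reads (adjusted p = 0.019), and 0.64 when reads shared with other tRNAs were counted too (adjusted p = 0.0407). Over normal diet the last 2 settings gave 1.46 (limma-voom adjusted p = 0.0177) and 0.86 (adjusted p = 0.0138).

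Trp-CCA also rose with SalB, with a wider spread. Its level was 3402, 3938 and 5246 CPM on normal diet, 3262, 3890 and 3778 in the high fat diet group, and 14899, 8358 and 5679 with SalB. All 3 SalB libraries again lay above the other 6, replicate 3 only narrowly. The rise was 1.31 over high fat diet (SE 0.34, 2.47-fold, limma-voom adjusted p = 0.0238) and 1.12 over normal diet (SE 0.34, adjusted p = 0.034). The first call was lost without high fat diet replicate 1, 2 or 3 (limma-voom adjusted p = 0.0812, 0.0712 and 0.0695), in a fit of only the 2 groups compared (1.21, adjusted p = 0.0705) and with libraries scaled by total reads (0.49, adjusted p = 0.476). The second held in 10 of 19 alternative settings and was lost without normal diet replicate 1 or 2 (limma-voom adjusted p = 0.125 and 0.0865), without high fat diet replicate 2 or 3 (0.0612 and 0.059), with total reads (0.34, adjusted p = 0.624), with the total of mature nuclear reads (0.0514), in a fit of only the 2 groups compared (0.107), without mismatched reads (0.0518) and with a replicate block (0.0667).

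Cys-GCA, the most abundant of the 3 tRNAs, was not called. Its level was 21668, 18300 and 13975 CPM on normal diet, 15262, 14379 and 14690 in the high fat diet group, and 15877, 10726 and 15045 with SalB, and the groups overlapped. The difference was -0.13 from high fat diet (SE 0.23, limma-voom adjusted p = 0.656) and -0.36 from normal diet (SE 0.23, adjusted p = 0.238). Without SalB replicate 2, its lowest library, the difference from high fat diet was 0.18 (limma-voom adjusted p = 0.529).

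None of the 3 tRNAs was called between high fat diet and normal diet, where 0% of the 103 families were called by limma-voom and 6 had an unadjusted p under 0.05. The log2 differences were -0.08 (SE 0.34) for Phe-GAA, -0.19 (SE 0.34) for Trp-CCA and -0.23 (SE 0.23) for Cys-GCA.

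**Figure D1:**
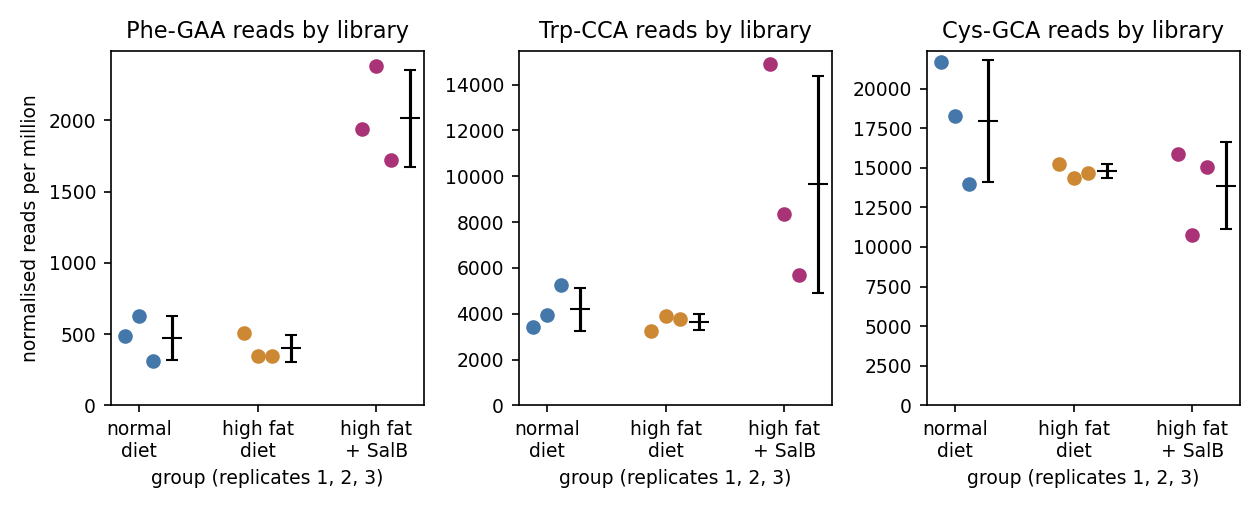
Level of each tRNA in each library, in normalised CPM (y axis, linear from 0), by group (x axis), with points for replicates 1, 2 and 3 from left to right and bars for mean ± SD (n = 3). The SalB points lie above all others for Phe-GAA (1719 to 2384) and Trp-CCA (5679 to 14899). For Cys-GCA they lie among the others, except replicate 2 (10726), which lies below them.

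The 3 tRNAs were compared with each other by the ratio of their reads within a library, which needs no scaling. Reads shared with other tRNAs were left out, and Phe-GAA had more of those (1062) than reads of its own (472). The mean log2 ratio of Phe-GAA to Cys-GCA was -5.28 ± 0.35 on normal diet, -5.23 ± 0.28 under high fat diet and -2.78 ± 0.53 with SalB (SD, n = 3). The SalB libraries lay above all others (exact permutation p = 0.1 for SalB against high fat diet, the smallest that 3 against 3 allows, and 0.225 adjusted over 9 comparisons). The ratio of Trp-CCA to Cys-GCA went from -2.02 ± 0.18 under high fat diet to -0.62 ± 0.69 with SalB (exact permutation p = 0.1, adjusted 0.225), again with no overlap. That of Phe-GAA to Trp-CCA overlapped between those groups, at -3.21 ± 0.46 and -2.16 ± 0.68 (exact permutation p = 0.2, adjusted 0.36).

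Reads were then split by end: 5′ fragments start at the first base, 3′ fragments end within the last 3 bases, and internal fragments do neither. Almost no reads were 5′ fragments, with 17 of Phe-GAA, 13 of Trp-CCA and 29 of Cys-GCA, and of the last, 27 were in SalB replicate 2. The other sums, 3′ and internal, were tested among 168 sums of all tRNAs, of which 21.4% were called higher and 7.14% lower with SalB than on high fat diet.

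Internal Trp-CCA fragments rose with SalB and its 3′ fragments were not called. The internal level was 1028, 652 and 951 CPM on normal diet, 883, 980 and 614 in the high fat diet group, and 12631, 4234 and 4010 with SalB. The rise over high fat diet was 2.88 (SE 0.46, 7.34-fold, limma-voom adjusted p = 0.00266), and it was called in each of the 19 alternative settings. The 3′ level overlapped between the groups, at 2379, 2882 and 3088 under high fat diet and 2250, 4093 and 1669 with SalB. Its difference was -0.15 (SE 0.35, limma-voom adjusted p = 0.766), and it was called lower with libraries scaled by total reads (-0.91, adjusted p = 0.0466).

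The 3′ fragments of Phe-GAA rose with SalB when reads shared with other tRNAs were left out. Their level was 291 ± 74.4 CPM under high fat diet and with SalB it was 1343 ± 300.4 (SD, n = 3; limma-voom log2 difference 2.14, SE 0.36, adjusted p = 0.0029). With the shared reads counted, the difference was -0.21 (limma-voom adjusted p = 0.579), and against normal diet it was 0.05 (adjusted p = 0.92). Internal Phe-GAA had 10, 4 and 4 reads on normal diet, 9, 2 and 4 in the high fat diet group, and 21, 51 and 25 with SalB, or 89.7 ± 40.1 CPM under high fat diet and 603 ± 207 with SalB. It passed the filter on low counts through the SalB libraries, so its difference is described without a test. In both parts every SalB library lay above the other 6.

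In Cys-GCA neither part was called. The 3′ level was 12549 ± 546 CPM under high fat diet and with SalB it was 10194 ± 3694 (limma-voom difference -0.40, SE 0.33, adjusted p = 0.363), and without SalB replicate 2 the difference was 0.08 (adjusted p = 0.839). The internal level was 2217 ± 127 and 3547 ± 817 (0.65, SE 0.24, limma-voom adjusted p = 0.0681), and every SalB library lay above every high fat diet library. That internal difference was called without SalB replicate 1 (0.94, limma-voom adjusted p = 0.0191) and was -0.09 with total reads.

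Against normal diet, where 28.6% of the sums were called higher and 8.93% lower with SalB, internal Trp-CCA and 3′ Phe-GAA were called higher too. The limma-voom log2 differences were 2.75 for internal Trp-CCA (SE 0.45, adjusted p = 0.00196) and 2.12 for 3′ Phe-GAA (SE 0.34, adjusted p = 0.00196). Between high fat diet and normal diet none of these sums was called, where limma-voom called 0.595% of all sums.

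**Figure D2:**
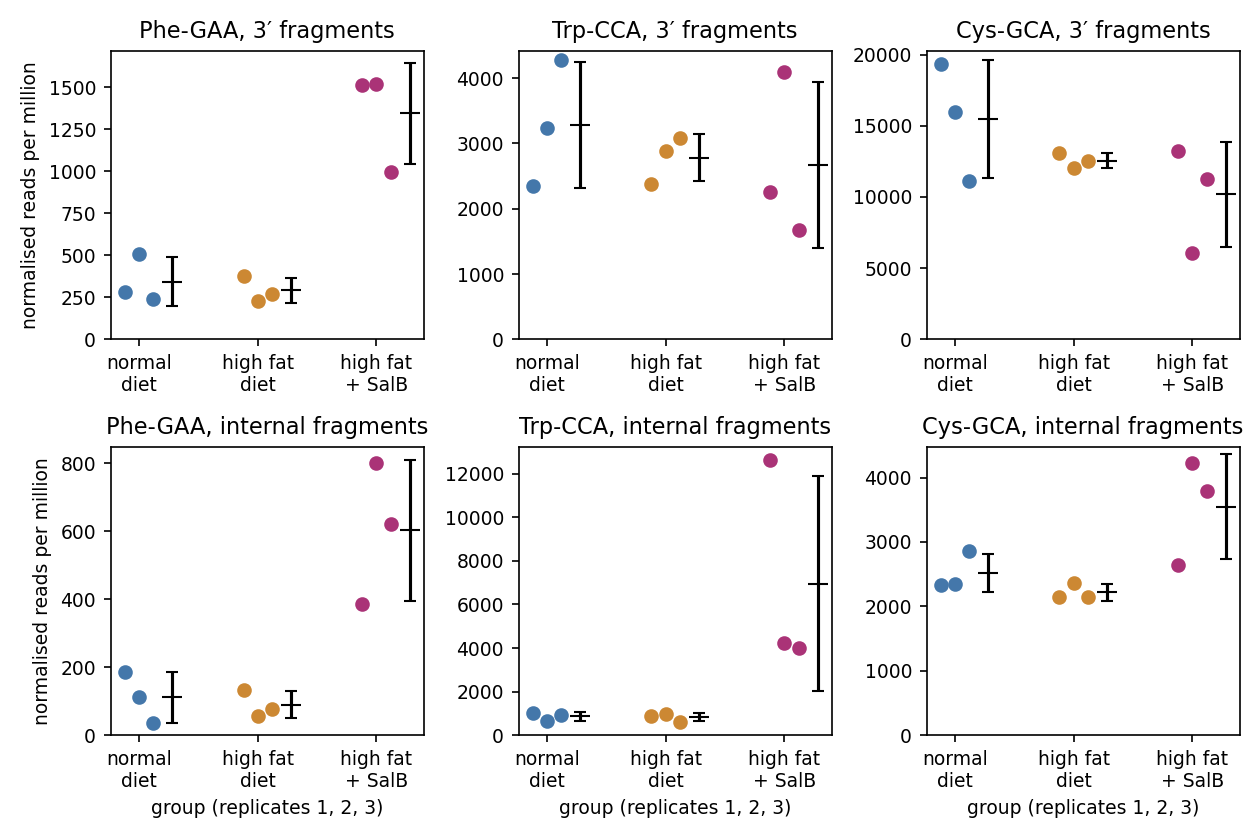
Level of 3′ fragments (upper row) and internal fragments (lower row) of each tRNA in each library, in normalised CPM (y axes, linear from 0), with points for replicates 1, 2 and 3 and bars for mean ± SD (n = 3). Internal Trp-CCA stands at 614 to 1028 without SalB and 4010 to 12631 with it, while its 3′ fragments overlap between groups.

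A single first base, 38, carried most of the rise in the mean levels of Trp-CCA and Phe-GAA with SalB. This did not hold in SalB replicate 2 alone. There base 38 held 2384 of 8358 CPM for Trp-CCA, beside high fat diet means of 254 of 3643. For Phe-GAA it held 910 of 2384 CPM, beside 80.1 of 400. The start at base 38 was singled out after its values were seen, so it is described without a test. Trp-CCA reads starting there numbered 24, 5 and 27 on normal diet, 13, 11 and 13 in the high fat diet group, and 609, 152 and 98 with SalB. They made up 13.2%, 3.60% and 4.75% of Trp-CCA reads on normal diet, 5.96%, 8.15% and 6.60% in the high fat diet group, and 75.4%, 28.5% and 43.0% with SalB, with no overlap. In level, the mean went from 254 ± 61.3 CPM under high fat diet to 5351 ± 5091 with SalB, an SD nearly as large as the mean because replicate 1 stood at 11230 against 2384 and 2441.

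Phe-GAA reads also started at base 38, the same number but, by its anticodon, not the same structural position as in Trp-CCA. Its reads starting at base 38 numbered 13, 7 and 8 on normal diet, 9, 1 and 4 in the high fat diet group, and 68, 58 and 48 with SalB. They were 35.1% ± 13.5, 19.01% ± 9.49 and 57.5% ± 16.9 of Phe-GAA reads (SD, n = 3), with the lowest SalB library (38.2%) below the highest normal diet library (50%). The level went from 80.1 ± 53.0 CPM under high fat diet to 1120 ± 184 with SalB, and those groups did not overlap. No read was longer than 40 bases, so Phe-GAA pieces that start well before base 38 and reach the CCA end could not appear.

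Cys-GCA, whose reads mostly start at bases 58 and 59, had few reads starting at base 38: 7 on normal diet, 2 under high fat diet and 20 with SalB, or 0.17%, 0.13% and 0.92% of its reads on average. In all other mature nuclear tRNAs together the same start took 0.22%, 0.22% and 0.36%. Those tRNAs differ in length and in the place of the anticodon, so base 38 is not the same structural position in each.

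**Figure D3:**
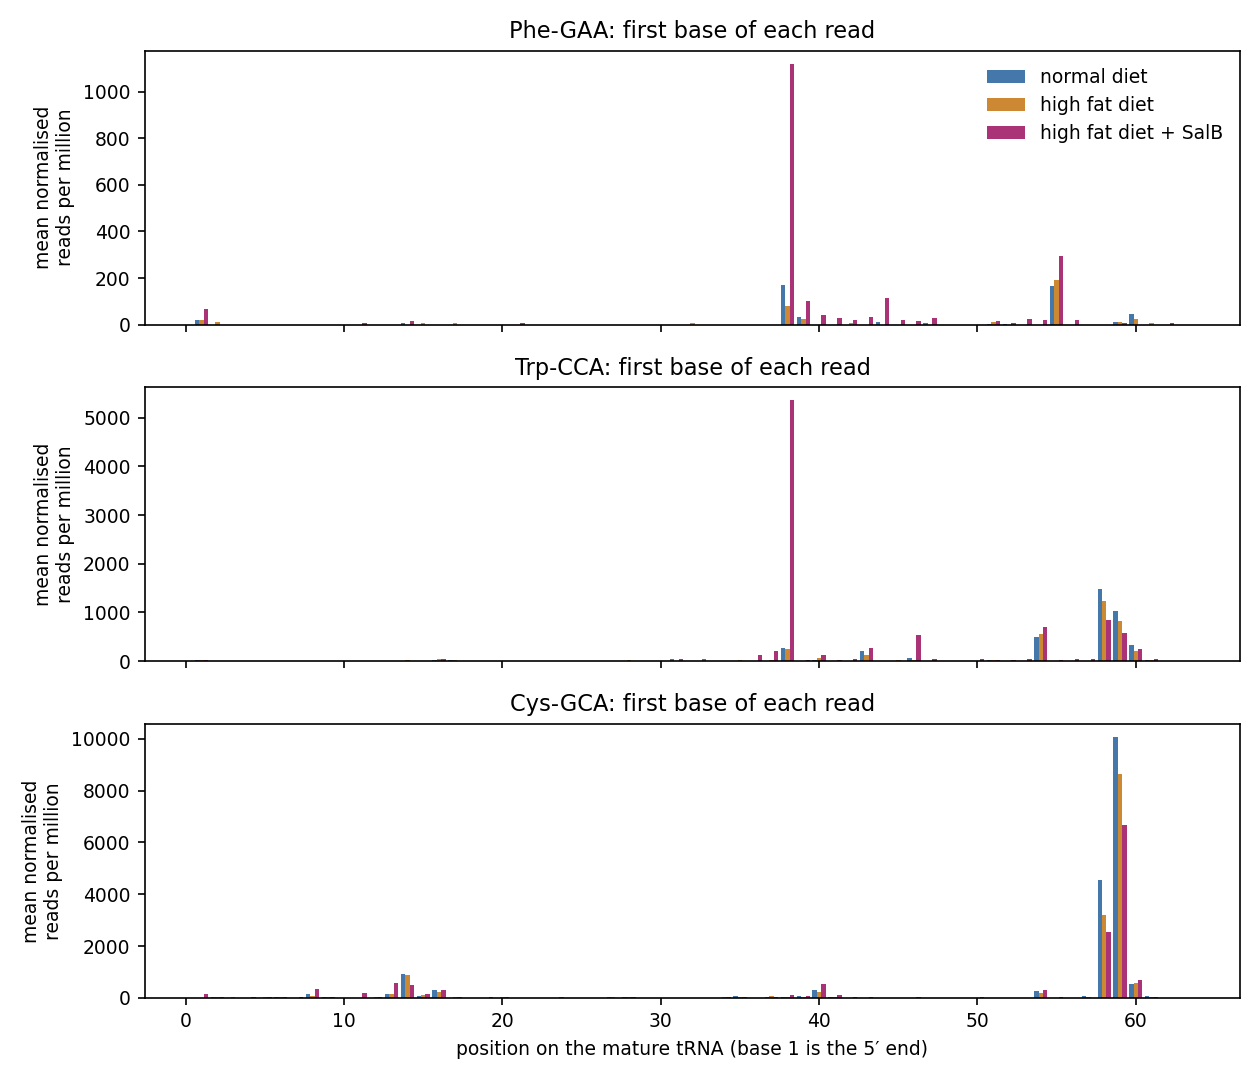
Mean level of reads by their first base (x axis, position on the mature tRNA) in each group, in normalised CPM (y axes, linear from 0; each bar is the mean of 3 libraries, shown without error bars). With SalB a single bar at base 38 stands out in Phe-GAA (1120) and Trp-CCA (5351), while Cys-GCA reads start mainly at bases 58 and 59 in every group.

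The fragments from base 38 ended at different places in the 2 tRNAs. In Trp-CCA, 79.6% ± 5.51 of them with SalB ended at bases 68 to 70, before the CCA tail, against 40.3% ± 12.04 on high fat diet (SD, n = 3), the latter from 37 reads in all. Only 41 of 859 reached the last 3 bases with SalB. In Phe-GAA, 137 of 174 did, and 77.8% ± 9.73 was the mean over the SalB libraries.

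The Trp-CCA fragment from 38 to 69 had 1, 1 and 2 reads on normal diet, 0, 0 and 2 in the high fat diet group, and 121, 29 and 22 with SalB. The fragment 1 base longer, to base 70, had 4, 0 and 7, then 1, 1 and 2, then 113, 27 and 19 reads. A form of the first with G69A, a mismatch to the reference at its last base, had 68 of its 70 reads with SalB, 55 of them in replicate 1. All these sequences were low in the same 6 libraries and highest in SalB replicate 1, and the G69A form had only 2 reads in SalB replicate 3.

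The Phe-GAA fragment from 38 to 76, which carries the whole CCA tail, had 3, 2 and 5 reads on normal diet, 1, 0 and 1 in the high fat diet group, and 26, 28 and 19 with SalB. Its level with SalB was 464 ± 21.7 CPM. The same fragment with A76G had 13 reads, all with SalB, and the one without the final base had 10 of its 11 reads there. A shorter fragment from 38 to 67 had 9 of 12 reads with SalB, 6 of them in replicate 3. In contrast, the fragment from 55 to 76 had 4, 5 and 3, then 6, 5 and 4, then 10, 9 and 2 reads, and its levels overlapped between the groups (81.4 ± 57.3, 104 ± 35.7 and 125 ± 68.7 CPM). Its form without the final base had 18 reads, 10 of them in SalB replicate 2.

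None of these long fragments entered the test of single fragments, which required 10 reads, scaled to the median depth, in at least 3 libraries. Of the 1316 member sequences assigned to 1 of the 3 tRNAs, 12 passed: 0 of Phe-GAA, 3 of Trp-CCA and 9 of Cys-GCA. With no such filter, limma-voom called 19 member fragments higher (1.44% of 1316) and 2 lower (0.152%) with SalB than on high fat diet, beside 1.45% and 0.63% of all 41240 fragments. Against normal diet it called 23 higher (1.75%) and 5 lower (0.38%), beside 1.8% and 0.56% of all. The shares of members called higher were near those of all fragments.

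The most abundant member was the Cys-GCA fragment from 59 to 75 (3036 reads), followed by the fragment from 58 to 75 (1135 reads). The first stood at 9834, 7904 and 5717 CPM on normal diet, 6284, 5677 and 6444 in the high fat diet group, and 5237, 2540 and 5306 with SalB. The second stood at 3720, 3824 and 2106, then 2155, 2305 and 1707, then 2176, 1035 and 1893. SalB libraries lay lowest for the first, but neither was called by limma-voom against high fat diet (-0.58, SE 0.35, adjusted p = 0.203, and -0.33, SE 0.37, adjusted p = 0.499) or normal diet (-0.88, SE 0.34, adjusted p = 0.0587, and -0.90, SE 0.37, adjusted p = 0.0675). The fragment from 60 to 75 was not called either (0.15 against high fat diet, SE 0.42, limma-voom adjusted p = 0.778).

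The Trp-CCA fragments of the same place were rarer. The fragment from 58 to 75 stood at 766, 1020 and 1228 CPM on normal diet, 688, 864 and 710 in the high fat diet group, and 350, 753 and 498 with SalB. It was not called (-0.54 against high fat diet, SE 0.36, limma-voom adjusted p = 0.261). The fragment from 59 to 75 stood at 523, 708 and 970, then 494, 576 and 633, then 240, 549 and 249. It was lower with SalB than on normal diet (-1.10, SE 0.40, limma-voom adjusted p = 0.0458), where 39% of 733 fragments were called in either direction. Every library without SalB reached the filter on low counts, but of the SalB libraries only replicate 3 did. The fragment thus entered the test through the groups where it is high, and this call is no independent support for a fall. SalB replicate 2 lay among the normal diet values. It was called under 6 of 18 alternative settings, and was lost among others without SalB replicate 1 (adjusted p = 0.188), SalB replicate 3 (0.156), normal diet replicate 2 (0.0834) or 3 (0.18), and high fat diet replicate 1, 2 or 3 (0.0553 to 0.0647). The fragment from 60 to 75 was not called in either comparison with SalB.

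The Cys-GCA fragment from 14 to 27, in the D arm, fell with SalB. It had 14, 9 and 60 reads on normal diet, 21, 12 and 22 in the high fat diet group, and 6, 3 and 7 with SalB, or levels of 262, 255 and 554, then 314, 346 and 422, then 111, 47.0 and 174 CPM. All SalB libraries lay below the other 6. The fall was -1.91 from high fat diet (SE 0.59, limma-voom adjusted p = 0.0277) and -1.89 from normal diet (SE 0.59, adjusted p = 0.0263). The fragment passed the filter on low counts only through the libraries without SalB. The filter thus favoured a fall, and these calls are no independent support for it. In the first comparison 34.2% of 733 fragments were called in either direction. It lost that call without SalB replicate 1, 2 or 3 (limma-voom adjusted p = 0.0692, 0.137 and 0.0511), and without high fat diet replicate 2 or 3 (0.0512 and 0.075). The call against normal diet held in 15 of 18 alternative settings and was lost without SalB replicate 1 or 2 (limma-voom adjusted p = 0.0704 and 0.125) and without normal diet replicate 3 (0.0789).

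Cys-GCA reads that start at base 14, summed, were lower in the SalB libraries than in all others, and those that start 1 base earlier were higher. Both starts were singled out after their values were seen, and neither was tested. Reads starting at base 14 stood at 915 ± 133, 864 ± 56.3 and 485 ± 167 CPM (normal diet, high fat diet, then SalB). Reads starting at base 13 stood at 143 ± 68.8, 163 ± 34.6 and 583 ± 363 (SD, n = 3). In neither case did the SalB libraries overlap with the others.

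No member fragment was called between high fat diet and normal diet by limma-voom, where 0% of fragments were called and 87 of 733 had an unadjusted p under 0.05.

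Read lengths followed the first bases. Trp-CCA reads of 26 to 36 bases made up 6.82% ± 4.13 on normal diet, 6.43% ± 2.78 under high fat diet and 52.4% ± 24.2 with SalB (SD, n = 3), and those of 14 to 19 bases 80.1% ± 3.27, 77.8% ± 4.18 and 32.3% ± 20.3. Phe-GAA reads of 37 to 40 bases made up 26.4% ± 8.22, 14.3% ± 12.4 and 48.4% ± 11.1. In each case the SalB libraries did not overlap with the others (exact permutation p = 0.1 against each other group, two-sided). Over all 280 ways to split the 9 libraries into 3 groups, exact p was 0.032, 0.018 and 0.014, and 0.094, 0.075 and 0.075 adjusted over 21 shares.

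Cys-GCA stayed short. Cys-GCA reads of 14 to 19 bases made up 94.8% ± 0.66 on normal diet, 94.3% ± 0.60 under high fat diet and 88.1% ± 4.65 with SalB, with no overlap between SalB and the other libraries (exact permutation p = 0.1 against each). SalB replicate 2 was lowest, at 82.7% (95% Wilson interval 79.7 to 85.4, for counting error only). Over the 280 splits exact permutation p for this share was 0.014 (adjusted 0.075). Reads of 20 to 25 bases made up 4.13% ± 0.60, 4.78% ± 0.60 and 10.1% ± 3.89 (exact permutation p over the 280 splits 0.011, adjusted 0.075).

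**Figure D4:**
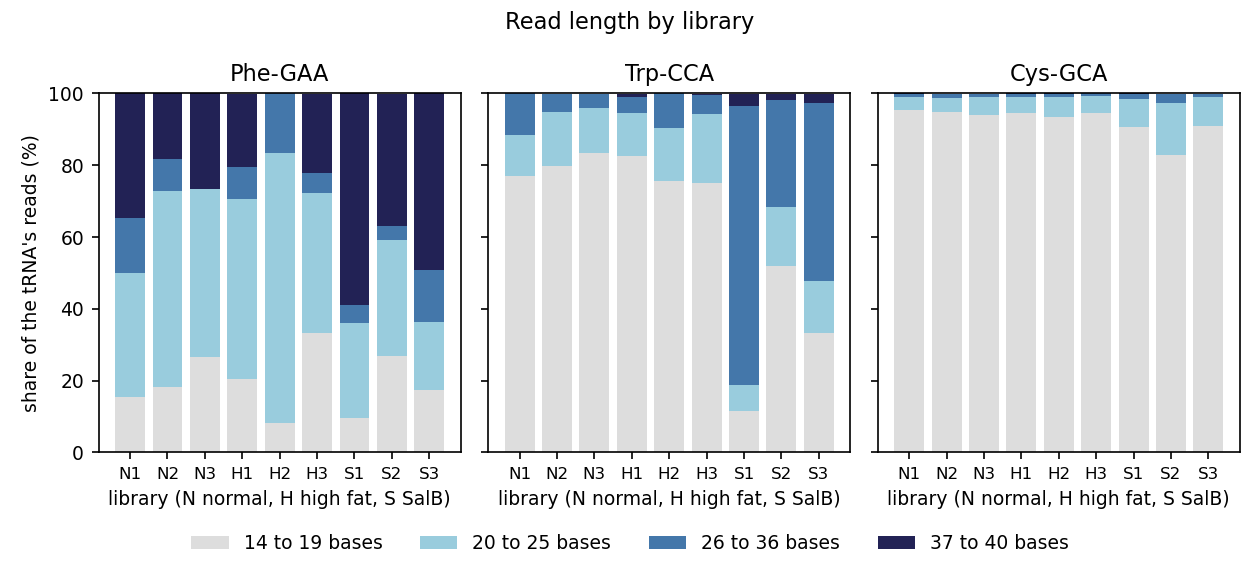
Share of each tRNA's reads in 4 length classes (y axis, percent) in each library (x axis; N normal diet, H high fat diet, S high fat diet with SalB; the number is the replicate). Dark bands grow in the SalB bars of Trp-CCA (26 to 36 bases) and Phe-GAA (37 to 40 bases), while Cys-GCA is 82.7% to 95.4% reads of 14 to 19 bases in every library.

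The last base of many reads differed from the reference. Among Cys-GCA reads from 59 to 75, 9.40% ± 1.66 had another base than A at 75 on normal diet, 13.5% ± 1.07 under high fat diet and 17.05% ± 3.94 with SalB (SD, n = 3), a measure chosen after its values were seen. The leading forms were A75G, at 480 ± 63.3, 686 ± 50.4 and 663 ± 326 CPM, and A75T, at 242 ± 55.5, 237 ± 82.2 and 273 ± 181. Neither was called in any comparison by limma-voom. An error in sequencing and a change at the RNA's end cannot be told apart here.

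Short 3′ fragments of Phe-GAA could not all be assigned. Reads that align to both Phe-GAA and Ser-GGA, 1043 in all, are not members. The leading one, 17 bases long, is shown because it includes the CCA end of both tRNAs (capitals mark CCA).
Phe-GAA/Ser-GGA: cccgggtttcggcaCCA
It had 46, 24 and 70 reads on normal diet, 55, 30 and 48 in the high fat diet group, and 21, 3 and 8 with SalB. The 3′ reads shared by the 2 tRNAs fell from 1958 ± 73.4 CPM under high fat diet to 639.7 ± 367 in SalB libraries (limma-voom log2 difference -1.76, SE 0.37, adjusted p = 0.00824), and the shared internal reads rose from 327 ± 69.2 to 1489 ± 261 (2.21, SE 0.29, adjusted p = 0.00108). They make up 1043 of the 1062 shared reads of Phe-GAA, whose effect on its level and 3′ sum is given above.

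Other tRNAs are given beside these as counts. A list held 4 nuclear tRNAs whose anticodon starts with G (Asp-GTC, Asn-GTT, His-GTG and Tyr-GTA). Others with such an anticodon, among them Gly-GCC and Ser-GGA, were not on it. Of the 4, 0 were called higher and 1 lower with SalB than on high fat diet. The lower one was Tyr-GTA at -1.69 (SE 0.50, limma-voom adjusted p = 0.0314), and the median log2 difference of the 4 was 0.04. Of all 41 nuclear families of a single anticodon outside the members, these 4 included, 9 were called higher and 4 lower. Their median was 0.43, beside 0.54 over all 103 families. The mitochondrial tRNAs for the same amino acids were too rare to test, with 46 reads for Phe, 91 for Trp and 79 for Cys over the 9 libraries. Of the 91 mitochondrial Trp reads, 26, 39 and 8 were in the SalB libraries.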

How the data were processed

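Total RNA from serum was made into libraries with a commercial kit for tRNA fragments and sequenced on an Illumina NextSeq instrument, per the labels' protocols. FastQC, cutadapt, Bowtie, edgeR and mm10 appear in the submitters' processing notes, without versions or roles. The deposited files are alignment lists, 1 per library, in which identical reads were collapsed and the read count stands inside the read name. All 210252 alignment lines were on the forward strand of mature or precursor tRNA references, with reads of 14 to 40 bases and at most 1 mismatch. Only reads that met tRNAs are listed, and whole-library depth is not known from them.

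Counts were summed per family, per end and per sequence, each read once, and were tested with limma-voom (limma 3.58.1, R 4.3.3) over all 9 libraries, with trimmed-mean factors. Rows needed 10 reads, scaled to the median depth of 44415 reads, in 3 libraries and 15 reads in all. Shares and ratios were tested by exact permutation over libraries (scipy 1.17.1). Intervals and small counts cover counting error only, since the reads carry no molecular identifiers. The scripts were tested on simulated data.

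Fragments named are the 6 with the highest mean level for each tRNA and every member called in any comparison. The members, lists and tests were chosen with earlier results of these data known, and the start at base 38 was singled out after its values were seen. Samples were grouped by the treatment labels. Libraries of the same replicate number were not paired: the correlations of their deviations ran from -0.30 to 0.16, beside -0.27 to 0.26 for other numbers. The alternatives were other scalings, filters, read sets and fits, a replicate block, and leaving out each library.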

Additional observations from a re-analysis of the deposited data

Results flagged for a closer look

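In 5 sets of reads outside the 3 members, every SalB library lay above every normal diet library. Precursor reads of Phe-GAA averaged 170.3 normalised CPM with SalB, those of Trp-CCA 185, and those of Cys-GCA 2041. The Phe-GAA value rests on 5, 14 and 8 reads, against 1, 1 and 3 on normal diet. That of Trp-CCA rests on 8, 18 and 5 reads, against 0, 2 and 11. Normal diet replicate 3 (102 CPM) lay near SalB replicate 3 (125 CPM) for Trp-CCA. Cys-GCA precursor reads came to 636, 425 and 545 CPM on normal diet, 314, 749 and 441 in the high fat diet group, and 3448, 1803 and 872 with SalB. They were called higher with SalB than in the high fat diet group (limma-voom log2 difference 1.97, SE 0.53, adjusted p = 0.0241), where 26.2% of 103 families were called higher. The set was picked for its high SalB values, so this call is no independent support for a rise. The trailer of 1 Cys-GCA gene, Cys-GCA-3-4, made up 2637, 737 and 648 CPM of the SalB values. Internal reads shared by Phe-GAA and Ser-GGA averaged 1489 with SalB, and those starting at base 38 averaged 472, against 50.03 ± 30.7 on normal diet (SD, n = 3).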

How the results depend on the processing

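The rise of Phe-GAA with SalB over both other groups and that of internal Trp-CCA reads were called in all 19 alternative settings. Values below are log2 differences (SalB against high fat diet unless another comparison is named), and the cause of each change was not tested. The lowest level that could be tested limits Phe-GAA, with 12 to 34 reads a library without SalB, and its internal sum, which passed the filter through the SalB libraries, could not be fitted with only reads without mismatch or under the stricter filter. Trp-CCA lost its call at 1.21 in fits of only the 2 groups compared and at 0.49 with total reads. Against normal diet it lost its call at 1.02 in fits of only the groups compared, 0.89 with reads without mismatch, 0.34 with total reads and 1.02 with the total of mature nuclear reads. Total reads gave called falls of 3′ Trp-CCA, -0.91 and against normal diet -1.07, and turned internal Cys-GCA to -0.094 and -0.24. Total reads also turned the Cys-GCA fragment from 59 to 75 with A75G against normal diet (-0.44) and that from 60 to 75 (-0.70, and -0.65 against normal diet). Counting shared reads turned 3′ Phe-GAA to -0.21, lost its call against normal diet (0.047) and turned Cys-GCA to 0.0081.

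Small differences between high fat diet and normal diet, none called, changed sign. Phe-GAA became 0.036 in fits of only those groups, 0.16 without mismatches and 0.22 with shared reads, and its 3′ sum 0.0074, 0.21 and 0.26. Its internal sum became -0.15 by limma on log2 values. The Cys-GCA fragment with A75T became 0.030 in fits of only those groups, 0.0097 with total reads and 0.0100 with the mature nuclear total, and that from 14 to 27 became -0.015 with no filter. With SalB the A75T fragment, never called, became 0.074 and against normal diet 0.0082 by limma on log2 values, 0.0049 with no filter, 0.0087 with median-ratio size factors and 0.034 under the stricter filter.

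Of 12 member fragments tested, 1 was called lower against high fat diet and 2 against normal diet, beside 16.6% and 18.6% of 733 fragments. In fits of only the groups compared it was 2 of 10 and 1 of 11. There 235 of 663 and 230 of 676 fragments were called in either direction. With total reads 5 and 6 of 12 were called lower, beside 325 and 348 of 733 called in either direction. With no filter 2 and 5 of 1316 were called lower (0.152% and 0.38%, beside 0.63% and 0.56% of all). Against normal diet 1 of 7 was called lower without mismatches and 1 of 12 with median-ratio factors. There 190 of 488 and 274 of 733 fragments were called in either direction. The number called higher, 0 in both, became 19 and 23 with no filter, shares near those of all fragments (1.44% beside 1.45%, and 1.75% beside 1.8%).

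With the replicate block, Trp-CCA lost its call against normal diet (1.12, limma-voom adjusted p = 0.0667). In that comparison 1 of 12 member fragments was called lower, beside 271 of 733 fragments called in either direction. Sign changes under the replicate block were -0.063 for internal Phe-GAA and -0.015 for the Cys-GCA fragment from 60 to 75 (both high fat diet against normal diet), and for A75T 0.024 in that comparison, 0.15 with SalB against high fat diet and 0.17 against normal diet. Deviations of same-numbered libraries were no more alike than those of other pairs (correlations -0.30 to 0.16, beside -0.27 to 0.26). These values cannot tell whether the numbers mark pairs in the design.

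Leaving out 1 library gave these ranges. Trp-CCA ran from 1.00 to 1.73 and against normal diet from 0.85 to 1.55, and Cys-GCA from -0.17 to 0.18. Internal Phe-GAA, which passed the filter through the SalB libraries, ran from 2.37 to 3.00, a range that is no support for its rise. The 3′ sum of Trp-CCA ran from -0.38 to 0.26 (against normal diet -0.62 to 0.053) and that of Cys-GCA from -0.54 to 0.081. Internal Cys-GCA ran from 0.59 to 0.94 (against normal diet 0.38 to 0.78). Between high fat and normal diet, Phe-GAA ran from -0.49 to 0.099, its 3′ sum from -0.37 to 0.22, its internal sum from -0.79 to 0.42 and internal Trp-CCA from -0.28 to 0.072. Of the Cys-GCA fragments, that from 58 to 75 ran from -0.46 to 0.12 and A75G from -0.47 to 0.36. The one from 60 to 75 ran from -0.10 to 0.72 (against normal diet -0.060 to 0.72, high fat against normal diet -0.20 to 0.15). The one from 14 to 27 ran from -0.19 to 0.39 between high fat and normal diet. A75T ran from -0.51 to 0.48 (against normal diet -0.50 to 0.47, high fat against normal diet -0.21 to 0.18). Of 10 to 13 member fragments tested, 0 to 2 were called lower against high fat diet and 0 to 3 against normal diet. Calls in either direction among all 670 to 762 fragments tested numbered 149 to 257 and 188 to 276.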

Other observations

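Reads of Trp-CCA that start at base 46 stood at 62.5 ± 30.6 CPM on normal diet, 35.2 ± 45.4 under high fat diet and 540.2 ± 79.6 with SalB (SD, n = 3), a start noticed in the plotted profile and not tested. The 3 SalB libraries, at 627, 470.5 and 523, lay closer together there than at base 38. Reads that met Cys-GCA together with Ala-AGC and Ala-TGC numbered 125, of which 123 were in SalB replicate 2 and 2 in SalB replicate 1.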
